A study of Mus musculus with 4 samples.

Results

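Il34, Csf1, Cxcl1, Ccl2, Bmp6 and Spp1 are 6 genes for secreted signals that injured kidney tubules can send to immune and stromal cells, and their expression was followed in the nuclei of 4 mouse kidneys. They were 6 of 19609 genes in a table of mean expression by cluster and mouse, in which 23 clusters and 4 mice gave 92 columns. The 6 were chosen on measured values of the same table, because Il34, Cxcl1 and Bmp6 were higher with injury in the cluster named InjuredPT-B, so their values with injury in that cluster are given here as a description and support nothing by themselves. Csf1, Ccl2 and Spp1 stand beside them as related signals.

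Single nucleus RNA sequencing had been done on kidney cortex of male mice of mixed strain, whose age is not given in the sources used here. The control mice carried TRE-hKLF6 alone, a doxycycline-responsive human KLF6 transgene with no activator to switch it on. The hKLF6OE mice carried CAG-rtTA,TRE-hKLF6, in which the activator is driven throughout the body, so overexpression was not limited to the tubule. All 4 mice ate a diet with 200 mg/kg doxycycline. The control with AAI and the hKLF6OE with AAI received 1 injection of 2 mg/kg aristolochic acid I (AAI), a plant toxin that damages DNA in proximal tubule cells, and were killed 24 hours later, while the control and the hKLF6OE mouse without AAI were labelled as untreated. Each condition was 1 mouse, so no spread between mice of a condition exists, no test was made, and an effect of a genotype or of AAI cannot be told apart from a difference between individual mice.

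Each value is a mean over the nuclei of 1 cluster in 1 mouse, normalised so that all genes of a column sum to 10000, and it is called the level below. Where 4 levels follow each other, they are those of the control, the control with AAI, hKLF6OE and hKLF6OE with AAI, and a pair of AAI differences is that of the control and then that of hKLF6OE. Differences are log2(level + 1) of the one side minus the other. A gene was called higher or lower where the difference was at least 0.2 in size, among genes with a level of at least 0.5 on either side. Introns were counted, and the genes span from 1.875 kb (Cxcl1) to 155.196 kb (Bmp6) of genome, so levels were compared between clusters and mice for 1 gene and never between genes.

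Interleukin-34 and colony stimulating factor 1, the products of Il34 and Csf1, are the ligands of the receptor CSF1R, on which macrophages and their precursors depend. CXCL1 draws neutrophils through CXCR2, and CCL2 draws monocytes through CCR2. BMP6 is a ligand of the TGF-beta superfamily that acts through BMP receptors and SMAD proteins and is known for its control of hepcidin and iron. Osteopontin, the product of Spp1, binds integrins and CD44, is made by the loop of Henle in healthy kidney, and is known to rise in injured tubules.

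In the GRCm38 assembly, which the labels name as mm10, Cxcl1 (ENSMUSG00000029380) lies on the plus strand at chr5:90891241-90893115 and Csf1 (ENSMUSG00000014599) on the minus strand at chr3:107741048-107760469. Bmp6 (ENSMUSG00000039004) lies on the plus strand at chr13:38345107-38500302, and Il34 (ENSMUSG00000031750) on the minus strand at chr8:110741829-110805924. Ccl2 (ENSMUSG00000035385) and Spp1 (ENSMUSG00000029304) lie on the plus strand at chr11:82035571-82037453 and chr5:104435118-104441050. GENCODE annotates genes on the opposite strand over Il34 (Gm15894, Gm15895), Ccl2 (Gm17268) and Bmp6 (4930579J19Rik, Txndc5), and Gm42793 on the same strand over Spp1. Whether reads were counted by strand is not given in the sources used here, so reads of these partners cannot be set apart.

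The promoters of Cxcl1, Csf1 and Bmp6 are shown since Cxcl1 was near 0 without AAI, Bmp6 was present without it and Csf1 stayed low throughout. Each runs from 250 bases before to 50 after the start of transcription, 5′ to 3′, from RefSeq on GRCm38.p6, and capitals mark matches to the NF-kB consensus. The Cxcl1 promoter lies at chr5:90890995-90891294 on the plus strand, the Csf1 promoter at chr3:107760420-107760719 on the minus strand, and the Bmp6 promoter at chr13:38345466-38345765 on the plus strand. The Bmp6 stretch lies wholly inside the gene span given above, downstream of the GENCODE start. Bases before that start are not shown and were not searched for motifs.
Cxcl1: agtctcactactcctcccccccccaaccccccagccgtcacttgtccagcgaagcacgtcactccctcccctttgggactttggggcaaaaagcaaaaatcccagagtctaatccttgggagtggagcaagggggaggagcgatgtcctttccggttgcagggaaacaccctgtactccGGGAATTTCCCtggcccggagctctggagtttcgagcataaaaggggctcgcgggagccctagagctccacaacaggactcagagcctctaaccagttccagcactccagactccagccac
Csf1: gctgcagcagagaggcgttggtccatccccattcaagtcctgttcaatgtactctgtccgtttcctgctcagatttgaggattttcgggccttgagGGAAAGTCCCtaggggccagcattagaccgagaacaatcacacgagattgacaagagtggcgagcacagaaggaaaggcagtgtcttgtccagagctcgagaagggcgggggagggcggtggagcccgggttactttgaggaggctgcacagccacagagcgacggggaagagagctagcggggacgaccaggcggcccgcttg
Bmp6: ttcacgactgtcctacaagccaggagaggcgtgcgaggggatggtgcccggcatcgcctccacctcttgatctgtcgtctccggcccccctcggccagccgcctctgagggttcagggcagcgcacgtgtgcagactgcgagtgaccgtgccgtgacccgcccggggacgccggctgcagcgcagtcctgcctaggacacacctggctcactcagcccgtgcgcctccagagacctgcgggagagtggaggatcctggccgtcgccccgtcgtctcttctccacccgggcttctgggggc

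NF-kB is a transcription factor of the inflammatory response. On either strand, the Cxcl1 promoter held 2 overlapping matches to its consensus, starting at -71 and -70 from the start of transcription, and the Csf1 promoter held 1 match at -154. Among all 32851 promoters of the same length, 8.46% held such a match. The AP-1 letters TGANTCA, found in 7.81% of promoters, were in none of the promoters shown. The letters CACCC, which KLF proteins can bind and which 57.5% of promoters held, started at -84 in Cxcl1 and at 32 in Bmp6, and the letters TATAAA, found in 13.6%, were in none of the 3. Spp1 has 2 promoters in the table, of which 1 held TATAAA at -211 and neither held a match to the other motifs. A match is a run of letters and not a measured site.

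The clusters were named by the order of sheets in a marker table that accompanies the study, and the names were checked on markers. Nphs1 was highest in Podocytes (mean of 4 mice 18.4), Cd74 in Macrophage (15.7), Slc12a1 in LH-AL-1 (206) and Slc12a3 in DCT (167). The injury markers Havcr1 and Krt20 were highest in InjuredPT-B, at means of 0.382 and 0.395, and Plin2 was highest in InjuredPT-B (1.86) and next in InjuredPT-A (1.37). Lcn2, another injury marker, was at 0.0283 in InjuredPT-A and at 0 in InjuredPT-B. Against its name, EC-1 held the proximal tubule gene Slc5a12 at 17.3. Normal proximal tubule here means the unweighted mean of 5 clusters, PT-S1-S2-1, PT-S1-S2-2, PT-S3-1, PT-S3-2 and PT-S3-3.

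The columns behind the injured clusters of the untreated mice were sparse. Untreated InjuredPT-A columns listed 62.6% (control) and 40.8% (hKLF6OE) of all genes at 0, whereas with AAI the shares were 22.5% and 22.2%. Untreated InjuredPT-B columns listed 51.3% and 55.7% at 0, and AAI-treated ones 27.0% and 29.7%. The numbers of nuclei and counts per column are not in the table, but the smallest level above 0 was 0.0423 and 0.0571 in untreated InjuredPT-B and 0.00287 and 0.00477 with AAI. A level of 0 in an untreated injured cluster is therefore a coarse value. For this reason, Il34, Cxcl1, Bmp6 and Spp1 in the injured clusters are also given against the normal proximal tubule of the same mouse. Calls of gene lists are against the untreated mouse unless normal proximal tubule is named as the reference.

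**Figure D1:**
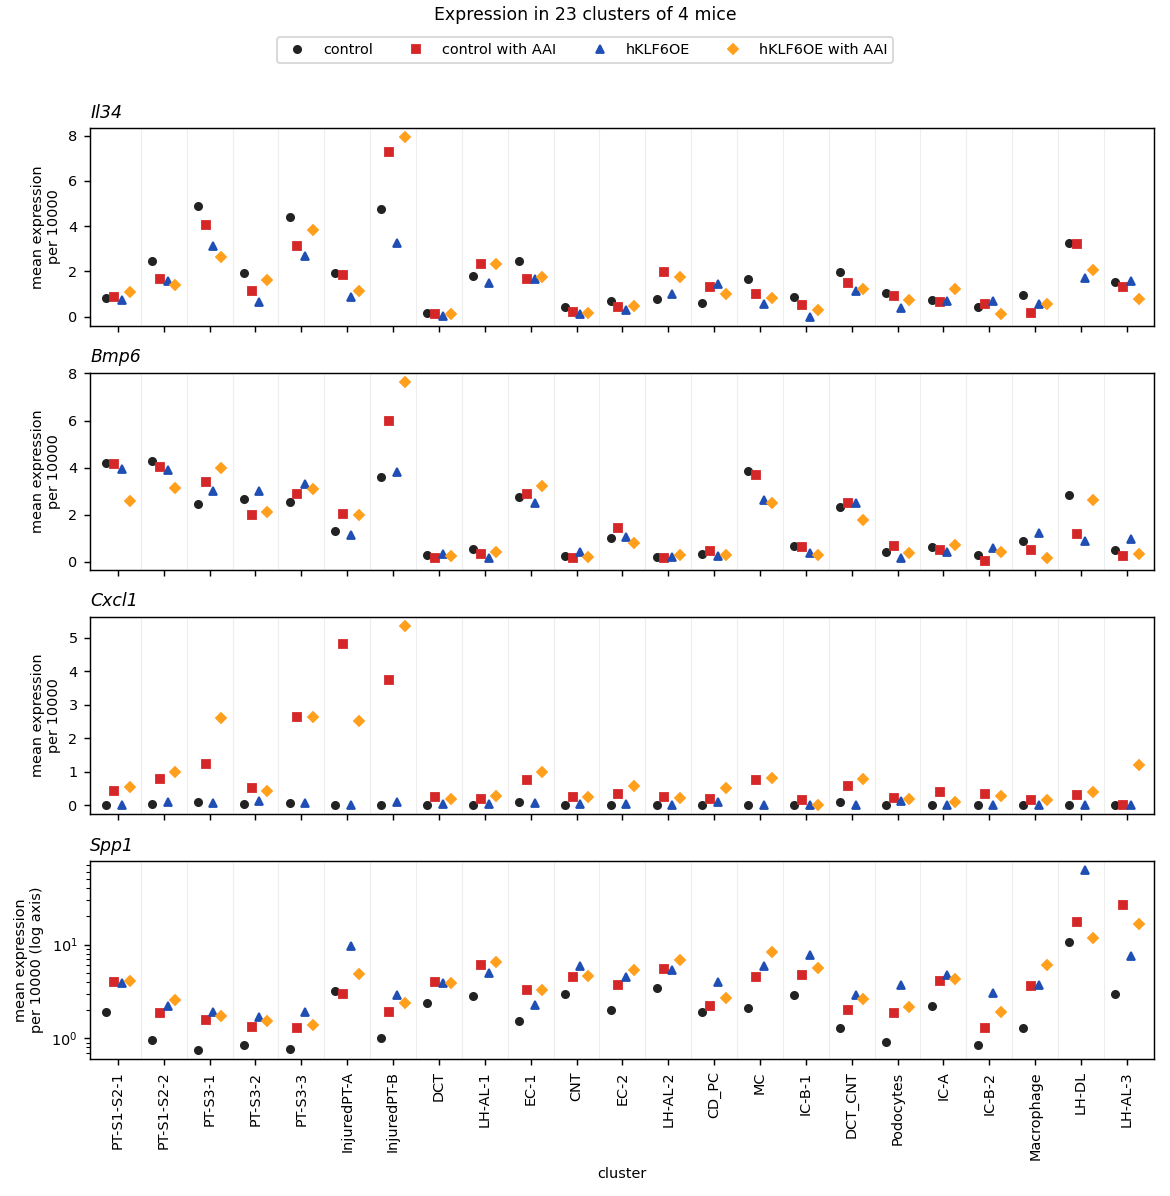
Level (mean expression per 10000) of Il34, Bmp6, Cxcl1 and Spp1 in each of 23 clusters, with the 7 proximal tubule clusters at the left and 1 point per mouse; the Spp1 axis is logarithmic. Il34 and Bmp6 were highest in InjuredPT-B of the AAI-treated mice, Cxcl1 was near 0 in every cluster without AAI, and Spp1 was highest in LH-DL of the untreated and LH-AL-3 of the AAI-treated mice.

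Il34 was highest or next to highest in InjuredPT-B in every mouse, and highest there with AAI. Without AAI its highest levels in the control mouse were 4.90 in PT-S3-1, 4.77 in InjuredPT-B, 4.40 in PT-S3-3 and 3.27 in LH-DL, and its lowest was 0.171 in DCT. Il34 was above 0 in all 23 clusters of the control. Ordered by the mean of 4 mice, InjuredPT-B (5.82) came before PT-S3-1 (3.68), PT-S3-3 (3.51) and LH-DL (2.56), and the ranges over mice of all neighbours in this order overlapped, as they did for the other genes.

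With AAI the InjuredPT-B level of Il34 was 7.29 in the control mouse and 7.93 in hKLF6OE, against 4.77 and 3.28 without AAI. These are folds of 1.53 and 2.42 and log2 differences of 0.52 and 1.06. InjuredPT-B of both AAI-treated mice stood above every other column for this gene. The same cluster stood above normal proximal tubule of the same mouse by 1.39 in the control with AAI and 1.52 in hKLF6OE with AAI, and also without AAI, by 0.56 and 0.64.

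InjuredPT-A did not share this pattern. Its Il34 levels were 1.95 in the control, 1.85 in the control with AAI, 0.849 in hKLF6OE and 1.11 in hKLF6OE with AAI. The AAI differences there, -0.05 and 0.19, were under the threshold. InjuredPT-B exceeded InjuredPT-A by 1.54 in the control with AAI and by 2.08 in hKLF6OE with AAI, and by 0.97 and 1.21 without AAI, so the order of the injured clusters was the same in all 4 mice.

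In normal proximal tubule Il34 went different ways with AAI. The mean level was 2.90 in the control, 2.17 in the control with AAI, 1.75 in hKLF6OE and 2.12 in hKLF6OE with AAI. AAI was accompanied by a difference of -0.30 in the control, called lower, and of 0.18 in hKLF6OE, under the threshold. The untreated control was the highest of the 4 mice, and the remaining 3 lay between 1.75 and 2.17.

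Among the normal clusters, PT-S3-1 gave 4.90, 4.06, 3.12 and 2.64. PT-S3-2 gave 1.91, 1.13, 0.669 and 1.62, and PT-S3-3 gave 4.40, 3.13, 2.66 and 3.85. In each of these clusters the untreated control was the highest. Without AAI, hKLF6OE was called lower than control in 14 of 21 clusters where Il34 passed the minimum and higher in 2, with a median difference of -0.39 over all 23. In the normal proximal tubule mean this difference was -0.51.

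Across all clusters, AAI was accompanied by a called higher Il34 level in 4 clusters and a lower one in 10 in the control, and by a higher one in 9 and a lower one in 3 in hKLF6OE. The largest difference in the control was 0.73, in LH-AL-2, and in hKLF6OE 1.06, in InjuredPT-B. Both AAI comparisons and the comparison of genotypes share mice, and the untreated hKLF6OE mouse, whose Il34 was low in most clusters, enters both its AAI difference and its genotype difference.

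Csf1, the other ligand of CSF1R, stayed under the minimum in every cluster. No column reached 0.5, the highest level was 0.438 in EC-2 of the control mouse, and Csf1 was at 0 in 12 clusters of the control, 5 of the control with AAI, 7 of hKLF6OE and 7 of hKLF6OE with AAI. In EC-2 the levels were 0.438, 0.433, 0.187 and 0.196. Both control mice thus stood above both hKLF6OE mice in this cluster, with or without AAI.

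In LH-DL Csf1 was 0 in the control, 0.257 in the control with AAI, 0.414 in hKLF6OE and 0.353 in hKLF6OE with AAI. In CD_PC the levels were 0, 0.243, 0.00835 and 0.351, higher in both AAI-treated mice. InjuredPT-B gave 0.0521, 0.0633, 0.0959 and 0.189, and InjuredPT-A gave 0, 0.157, 0.161 and 0.0445. At these levels no call was made in any cluster, and whether Csf1 differed with AAI was not detectable under the rule used.

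Their receptor, Csf1r, was highest in the Macrophage cluster, at 2.24, 2.41, 1.11 and 0.661. Both control mice were above both hKLF6OE mice there. The next cluster was PT-S3-2, with a mean of 0.780 over 4 mice and single levels of 0.997, 0.741, 0.587 and 0.795. Csf1r in InjuredPT-B was 0.0799, 0.114, 0 and 0.0629, so the cluster with the highest Il34 held little of its receptor.

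**Figure D2:**
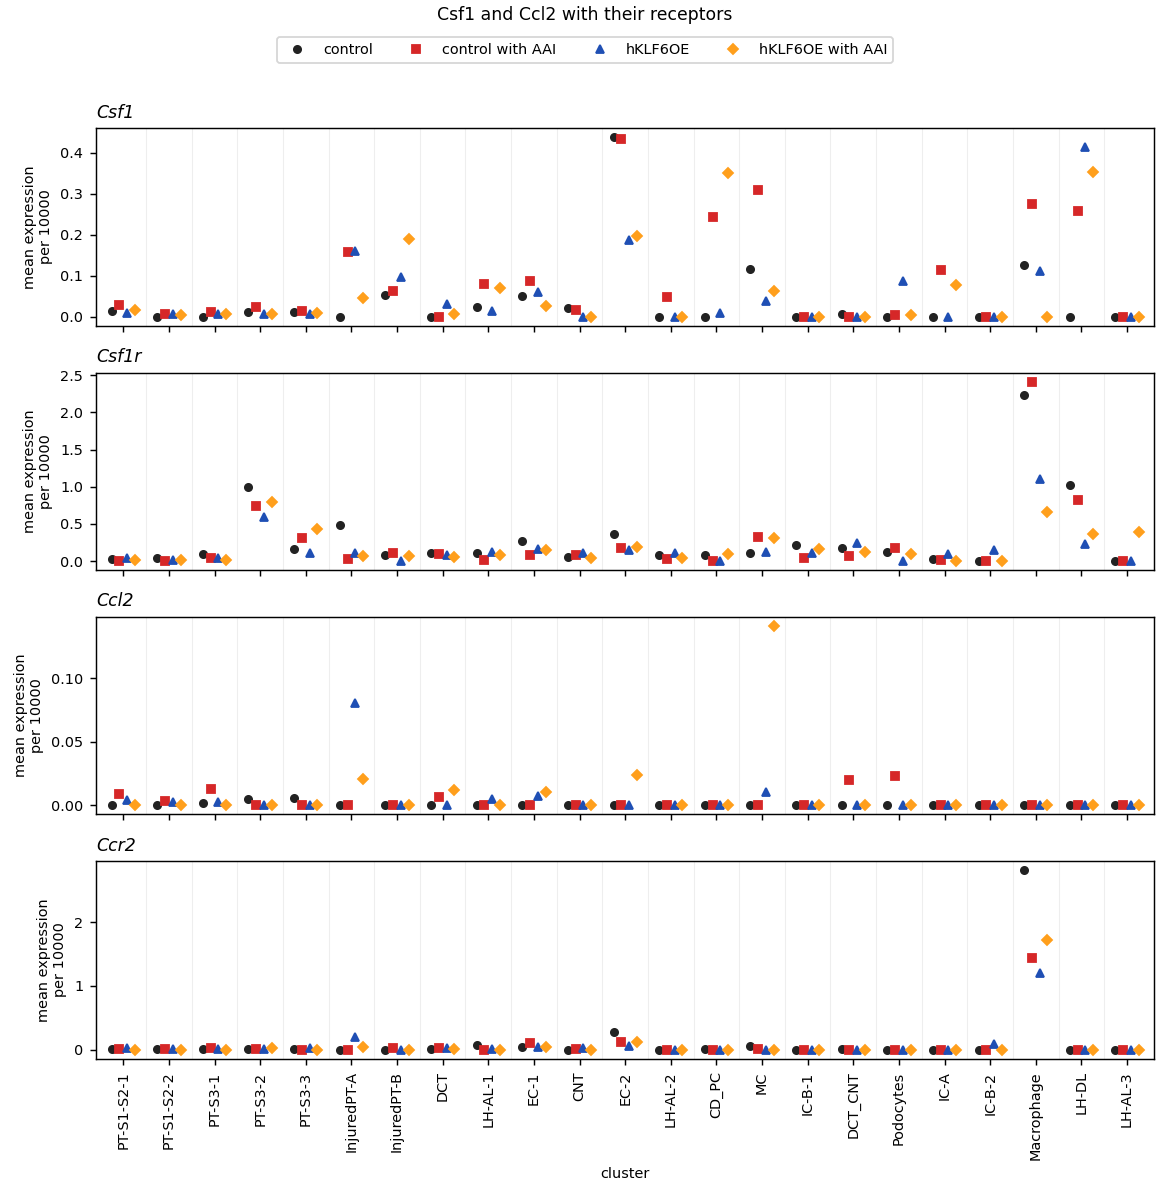
Level of Csf1 with its receptor Csf1r and of Ccl2 with its receptor Ccr2, per cluster, 1 point per mouse; each panel has its own axis. Csf1 reached at most 0.438 and Ccl2 at most 0.141, while Csf1r and Ccr2 were highest in the Macrophage cluster.

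Ccl2, the monocyte chemokine, was almost absent from these nuclei. It was at 0 in 20, 17, 16 and 18 of 23 clusters in the control, the control with AAI, hKLF6OE and hKLF6OE with AAI. InjuredPT-B was at 0 in all 4 mice. InjuredPT-A was at 0 in both control mice, at 0.0803 in hKLF6OE and at 0.0207 in hKLF6OE with AAI.

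The highest Ccl2 level of all was 0.141, in the mesangial cluster MC of hKLF6OE with AAI. Ccl2 passed the minimum in no cluster and so was neither called nor counted. Its receptor Ccr2 was highest in the Macrophage cluster, at 2.81, 1.44, 1.21 and 1.73. The untreated control was the highest there.

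Cxcl1 was nearly absent without AAI and present in most clusters with it. In the untreated mice its highest level in any cluster was 0.0880 in the control and 0.120 in hKLF6OE, and it was at 0 in 16 and 10 of the 23 clusters. With AAI its level was higher than without in 22 of 23 clusters in the control, the exception being LH-AL-3, which was at 0 on both sides, and in 23 of 23 in hKLF6OE. No untreated column reached 0.5, so Cxcl1 passed only where its AAI level did, and a lower call could not occur. It was called higher in 9 clusters of the control and in 12 of hKLF6OE, which were all those that passed. Of all genes that passed in at least 1 cluster, 6.78% were called higher with AAI in 9 or more clusters in the control, and 6.03% in 12 or more in hKLF6OE. Genes that passed in fewer clusters could not reach these counts.

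Cxcl1 was highest in InjuredPT-A and then InjuredPT-B in the control with AAI, and in hKLF6OE with AAI it was highest in InjuredPT-B, while InjuredPT-A came after PT-S3-3 and PT-S3-1. InjuredPT-B gave 0 in the control, 3.75 in the control with AAI, 0.100 in hKLF6OE and 5.35 in hKLF6OE with AAI. InjuredPT-A gave 0, 4.80, 0 and 2.52. Both AAI-treated mice were above both untreated mice in either cluster, with differences of 2.25 and 2.53 in InjuredPT-B and of 2.54 and 1.82 in InjuredPT-A. As no count per column is known, no fold is given where the untreated level was 0.

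Which injured cluster held more Cxcl1 depended on the mouse. InjuredPT-B was below InjuredPT-A by 0.29 on the log2 scale in the control with AAI, and above it by 0.85 in hKLF6OE with AAI. Seen between genotypes, hKLF6OE with AAI was above the control with AAI by 0.42 in InjuredPT-B and below it in InjuredPT-A, with a difference of -0.72.

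Normal proximal tubule clusters rose with AAI as well, from well-filled columns in which 15.1% to 31.3% of genes were at 0. Their mean Cxcl1 level was 0.0462 in the control, 1.12 in the control with AAI, 0.0746 in hKLF6OE and 1.44 in hKLF6OE with AAI, which are folds of 24.2 and 19.3 and differences of 1.02 and 1.19. With AAI PT-S3-3 was the highest of them, its levels being 0.0631, 2.63, 0.0795 and 2.65, and PT-S3-1 followed at 0.0856, 1.23, 0.0763 and 2.60. The lowest among them with AAI were PT-S1-S2-1 in the control, at 0.438, and PT-S3-2 in hKLF6OE, at 0.432.

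Set beside the normal tubule of the same mouse, InjuredPT-B of the control with AAI held 3.35 times as much Cxcl1, a difference of 1.17, and that of hKLF6OE with AAI 3.70 times as much, a difference of 1.38. For InjuredPT-A the folds were 4.29 and 1.75 and the differences 1.45 and 0.53. The genotypes differed by 0.21 in the normal proximal tubule mean with AAI, just past the threshold, with hKLF6OE the higher. Among its clusters, PT-S3-1 differed by 0.69 and the others stayed under the threshold, from -0.07 in PT-S3-2 to 0.15 in PT-S1-S2-2.

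Outside the proximal tubule Cxcl1 was present with AAI in nearly all clusters, at a median of 22.3% of the normal proximal tubule level in the control with AAI (range 0 to 68.4%) and 19.8% in hKLF6OE with AAI (range 1.40 to 83.6%). The summed level of 20 proximal tubule genes, such as the transporters Slc34a1 and Slc5a2, was at 32.5% (18.2 to 73.5%) and 30.5% (22.3 to 90.6%) of normal proximal tubule in the same 16 clusters. The clusters with the most Cxcl1 in the control with AAI, MC at 68.4% and EC-1 at 67.7%, also held much of the proximal tubule genes, at 69.6% and 73.5%. LH-AL-3 of hKLF6OE with AAI, a sparse column with 61.5% of genes at 0, stood apart with Cxcl1 at 83.6% and proximal tubule genes at 28.4%. The part that free proximal tubule RNA has in the Cxcl1 of these clusters was not tested.

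**Figure D3:**
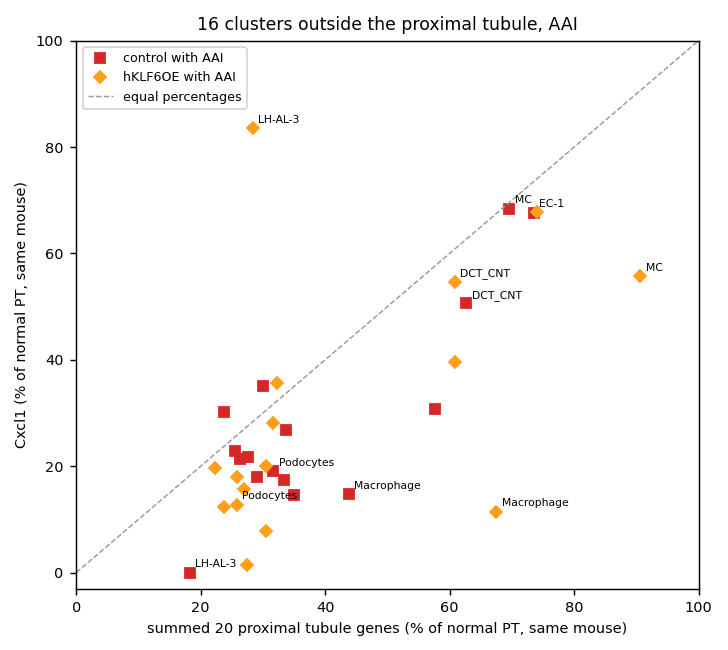
Cxcl1 level against the summed level of 20 proximal tubule genes, each as a percentage of normal proximal tubule of the same mouse, in 16 clusters outside the proximal tubule of the AAI-treated mice; the dashed line marks equal percentages. In 28 of the 32 points the Cxcl1 percentage was the lower one, and LH-AL-3 of hKLF6OE with AAI lay above it, at 83.6% against 28.4%.

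The NF-kB and AP-1 list holds 27 transcription factors and early genes of inflammation, most of which did not pass the minimum in both genotypes. In InjuredPT-B 7 of its 8 genes that passed in both genotypes were called higher in both (Nfkb1, Nfkbia, Nfkbiz, Stat3, Jun, Junb and Egr1), with medians of 0.81 and 0.68, while 1101 of all 4398 genes were called higher and 634 lower in both, with medians of 0.11 and 0.12. In InjuredPT-A all 12 that passed were called higher in both, against 1850 of 4974. Against normal proximal tubule of the same mouse, all 8 that passed in InjuredPT-B were called higher in both, beside 23.4% of all genes. In InjuredPT-A 10 of 12 were, beside 43.3%. Nfkbia, an NF-kB target that encodes an inhibitor of NF-kB, was at 0, 2.80, 0.420 and 1.64 in InjuredPT-A.

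Other chemokines gave few calls. Of 22 in the table besides Cxcl1 and Ccl2, 2 passed in both genotypes in InjuredPT-B and 1, Ccl25, was called higher in both, as were 25% of all genes. Ccl25, which attracts thymocytes and gut lymphocytes, was highest in InjuredPT-A, at 0.662, 3.08, 0.121 and 2.22. Cxcl2, a close relative of Cxcl1, was at 0, 1.49, 0 and 0.332 in InjuredPT-A and reached at most 0.139 in InjuredPT-B. Cxcl12, a chemokine of lymphocytes and progenitor cells, was lower with AAI in normal proximal tubule, at 1.09, 0.558, 0.911 and 0.473, and Ccl28 was higher, most of all in PT-S3-3, at 0.686, 1.89, 0.780 and 3.58.

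Among 25 other cytokines in the table, Il15, which sustains natural killer cells, was the 1 of 3 that passed to be called higher in both genotypes in InjuredPT-B, where 25% of all genes were, at 0.454, 2.22, 0.316 and 2.01. It was also called higher in both in normal proximal tubule, where 7.66% of all genes were, at 0.985, 1.81, 0.821 and 1.92. Against normal proximal tubule of the same mouse, Il15 was not called in InjuredPT-B of either AAI-treated mouse. In InjuredPT-A, Pdgfa was called higher and Mif lower in both, among 4 that passed, beside 37.2% and 19.7% of all genes. Against normal proximal tubule, Pdgfa was called higher and Il15 lower in both there, beside 43.3% and 27% of all genes.

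With AAI, each macrophage marker other than Mertk was under 1 in the injured clusters, and Cx3cr1 was the highest of them, at 0.497 and 0.873 in InjuredPT-A. The 16 macrophage markers summed to 3.01 in InjuredPT-B of the control with AAI and 1.71 in hKLF6OE with AAI. In the same 2 mice they summed to 3.23 to 4.72 in the normal proximal tubule clusters and 51.9 to 62.3 in the Macrophage cluster. Mertk, which proximal tubule nuclei also held, made up 2.26 and 1.34 of the InjuredPT-B sums, and Ptprc, the leukocyte antigen CD45, was at 0.0535 and 0.0137. In InjuredPT-A the sums were 2.34 and 2.76. The 10 other immune markers summed to 0.0302 and 0.0295 in InjuredPT-B with AAI and to 0.373 and 0.440 in InjuredPT-A, against 0.00564 to 0.0403 in the 5 normal clusters with AAI. The B cell gene Cd79a made up 0.343 and 0.407 of the InjuredPT-A sums and was at 0 there without AAI, whereas Ms4a1, another B cell marker, Cd3e, Cd8a and Nkg7 were at 0 in both injured clusters of all 4 mice. The part of such cells in the InjuredPT-A levels was not tested.

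Bmp6 was highest in InjuredPT-B of both AAI-treated mice. In the control mouse without AAI it was highest in PT-S1-S2-2 (4.26) and PT-S1-S2-1 (4.22), followed by MC (3.87). In InjuredPT-B it was 3.62 in the control, 5.99 in the control with AAI, 3.82 in hKLF6OE and 7.65 in hKLF6OE with AAI. The AAI differences were 0.60 and 0.84, folds of 1.66 and 2.00, and InjuredPT-B of both AAI-treated mice stood above every other column.

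InjuredPT-A also gave higher Bmp6 with AAI, from lower levels. It was 1.33, 2.06, 1.14 and 1.98, and the AAI differences were 0.39 and 0.47. Yet InjuredPT-A was below normal proximal tubule of the same mouse in all 4 mice, by differences of -0.86, -0.49, -1.05 and -0.42 in the control, the control with AAI, hKLF6OE and hKLF6OE with AAI. InjuredPT-B was above it by 0.70 and 1.12 with AAI, and by 0.13 and 0.12, under the threshold, without.

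Normal proximal tubule had nearly even Bmp6 levels, at 3.23, 3.29, 3.44 and 2.99, with AAI differences of 0.02 and -0.15. Within it, PT-S3-1 went from 2.45 to 3.41 in the control and from 3.00 to 3.97 in hKLF6OE, while PT-S1-S2-1 went from 4.22 to 4.15 and from 3.95 to 2.57. The AAI differences in hKLF6OE were 0.31 in PT-S3-1, -0.35 in PT-S3-2, -0.08 in PT-S3-3, -0.47 in PT-S1-S2-1 and -0.24 in PT-S1-S2-2. PT-S3-1 was thus the only normal cluster called higher in hKLF6OE, and 3 others were called lower.

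Bmp6 was called higher with AAI in 5 of 18 clusters that passed in the control and lower in 5, and higher in 6 of 16 and lower in 6 in hKLF6OE. The lowest difference in the control, -0.82, and the highest in hKLF6OE, 0.94, were both in LH-DL, where the levels were 2.86, 1.19, 0.902 and 2.65. These LH-DL columns had 42.5% to 60.7% of genes at 0.

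Receptors and signal carriers of BMP6 were present in the same cluster. Of 22 receptor genes of the 6 signals in the table, 9 passed in InjuredPT-B in both genotypes, of which Bmpr1a, Bmpr2, Acvr2a, Itgav and Itgb5 were called higher with AAI in both and Acvr2b lower in both. Of all genes that passed in both, 25% were called higher and 14.4% lower in both. Against normal proximal tubule of the same mouse, Acvr2a, Itgb1 and Itgb5 were called higher in both, beside 23.4% of all genes. None of the receptor genes was called lower in both in that comparison. Bmpr1a, a type I BMP receptor, was at 0.949, 1.95, 1.30 and 1.81 in InjuredPT-B. Acvr2b, a type II receptor, was at 1.87, 0.721, 1.25 and 0.691. Bmpr1b, another type I receptor, was highest in the intercalated cluster IC-A, with a mean of 17.5 over 4 mice.

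Of 22 BMP signalling genes, 7 passed in InjuredPT-B in both genotypes and 2, Smad1 and Id1, were called higher in both, a share near the 25% of all genes called higher in both there. Id1, a transcriptional target of BMP signals, was at 0.225, 0.785, 0 and 0.842 in InjuredPT-B and at 0.155, 0.558, 0.185 and 0.621 in normal proximal tubule. In InjuredPT-A, 9 passed, Smad1, Smad4, Smad7 and Id3 were called higher in both, and Id2 and Sostdc1 lower in both, while 37.2% of all genes were called higher and 19.7% lower in both. Against normal proximal tubule, Smad1 and Smad7 were called higher in both in InjuredPT-B, of 7 that passed, beside 23.4% of all genes. In InjuredPT-A, Smad1, Smad4, Smad7 and Id3 were, of 9 that passed, beside 43.3%. Gdf15, another ligand of the superfamily and a stress-induced hormone, was at 0, 3.39, 0 and 2.08 in InjuredPT-B and at 0.126, 1.59, 0.117 and 0.939 in normal proximal tubule.

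Spp1 was highest in LH-DL in both untreated mice and in LH-AL-3, followed by LH-DL, in both AAI-treated mice. In 22 of 23 clusters its lowest level was that of the untreated control mouse. It was above 0 in all 92 columns. LH-DL gave 10.7, 17.5, 61.9 and 11.8, and LH-AL-3 gave 2.96, 26.3, 7.62 and 16.8. The untreated hKLF6OE mouse stood far above the others in LH-DL, where 42.5% of genes were at 0 in that mouse and 60.7% in the untreated control. In LH-AL-3 both AAI-treated mice were above both untreated ones, and the LH-AL-3 columns had 60.5% to 63.4% of genes at 0.

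Without AAI, Spp1 was higher in hKLF6OE than in the control in every cluster. The fold ran from 1.47 in EC-1 to 5.76 in LH-DL, with a median of 2.30, and Spp1 was called higher in 23 of 23 clusters. Of all genes that passed in at least 1 cluster, 0.107%, or 11 of 10299, were called higher in 23 clusters. Genes that passed in fewer could not be, and those that passed in all 23, as Spp1 did, were not counted. The clusters of a mouse share its library, so the 23 calls of Spp1 are 23 readings of the same pair of mice.

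With AAI, Spp1 was called higher in 21 of 23 clusters in the control, with a median fold of 1.84. As many were reached by 7 of the 10576 genes that passed in at least 1 cluster. Genes that passed in fewer than 21 could not reach this count. In hKLF6OE Spp1 was called higher in 7 and lower in 9, with a median fold of 0.901. These comparisons share the untreated mice with the comparison of genotypes, and the untreated control, which was low, and the untreated hKLF6OE mouse, which was high, stand in both. The part of free Spp1 RNA, shared by all clusters of a library, was not tested.

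In the injured clusters Spp1 was higher in InjuredPT-A than in InjuredPT-B in all 4 mice. InjuredPT-A gave 3.16, 3.00, 9.61 and 4.86, and InjuredPT-B gave 0.996, 1.90, 2.90 and 2.37. The AAI differences in InjuredPT-A were -0.06 in the control and -0.86 in hKLF6OE, and in InjuredPT-B 0.54 and -0.21. InjuredPT-A was above normal proximal tubule in all 4 mice, by 1.02, 0.41, 1.67 and 0.84, whereas InjuredPT-B differed from it by -0.04, -0.05, 0.23 and 0.05.

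The normal proximal tubule mean of Spp1 was 1.05, 2.00, 2.33 and 2.26. The control without AAI was below the other mice, which lay close together. Itgav, the alpha chain of an osteopontin-binding integrin, was called higher with AAI in both genotypes, at 2.33, 3.62, 2.16 and 3.09 in normal proximal tubule and 2.56, 3.99, 2.18 and 5.21 in InjuredPT-B. Cd44, another osteopontin receptor, was highest in the Macrophage cluster, at 0.538, 3.86, 1.18 and 2.87, and reached at most 0.134 in InjuredPT-B.

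**Figure D4:**
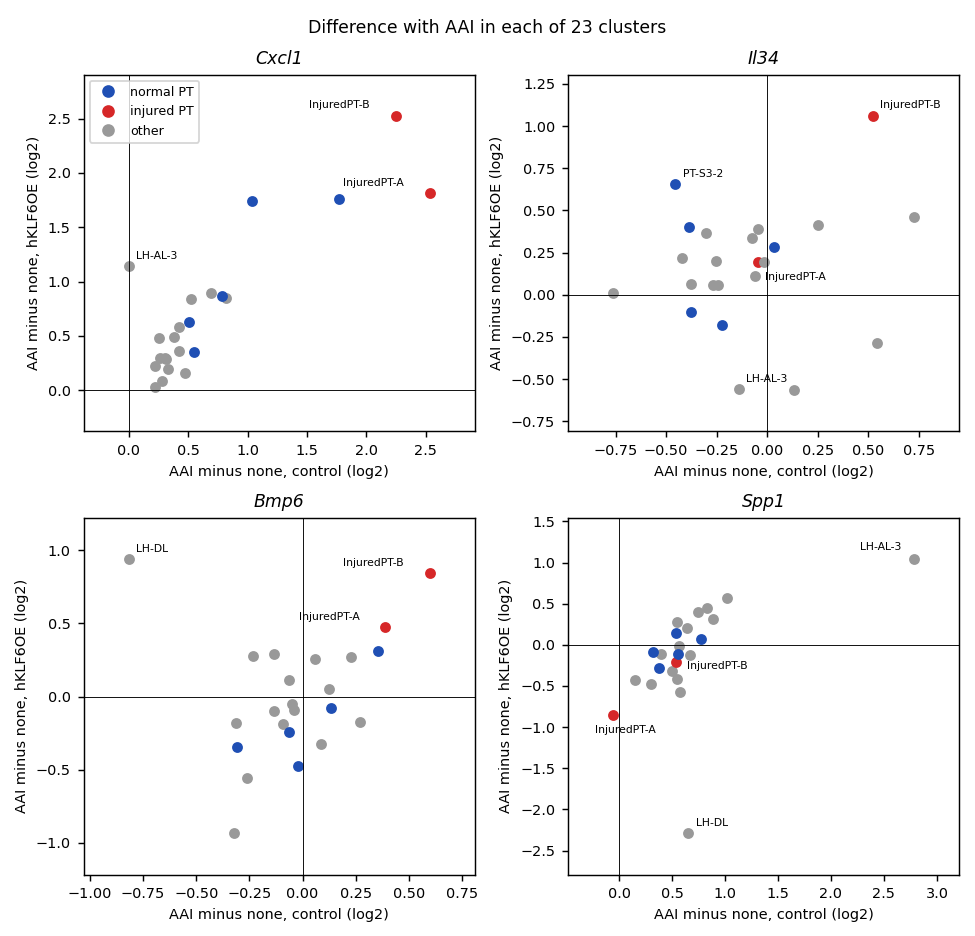
Difference of log2(level + 1) between the AAI-treated and the untreated mouse in each of 23 clusters, for control mice (horizontal) and hKLF6OE mice (vertical), with normal proximal tubule clusters in blue, injured ones in red and others in grey. Cxcl1 differences were at or above 0 in all clusters, InjuredPT-B lay at the upper right for Il34 and Bmp6, and Spp1 differences were above 0 in 22 clusters of the control and in 9 of hKLF6OE.

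Counted together, 4 of the 6 genes passed the minimum in the proximal tubule, Csf1 and Ccl2 being too low. With AAI in InjuredPT-B, 4 of 4 were called higher in the control and, in hKLF6OE, 3 were called higher and 1, Spp1, lower. In the same comparisons 67.6% and 74.1% of all genes that passed were called one way or the other, so a call in this cluster was common and the counts, in a contrast on which the genes were chosen, carry no weight. The median difference of the 4 genes was 0.57 and 0.95, and that of all genes 0.07 and 0.07.

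With AAI in InjuredPT-A, 2 were called higher in the control (Cxcl1 and Bmp6), and in hKLF6OE the same 2 higher and Spp1 lower, where 82.5% and 76.7% of all genes were called. In normal proximal tubule, where calls were rarer, at 23% and 34.9% of genes, Cxcl1 and Spp1 were called higher and Il34 lower in the control, and Cxcl1 alone was called in hKLF6OE. Against normal proximal tubule, 3 of 4 were called higher in InjuredPT-B of either AAI-treated mouse (Il34, Cxcl1 and Bmp6). These 3 were chosen on their levels with AAI in that cluster, so this count carries no weight either. Of all genes, 34.3% were called higher in the control and 35.9% in hKLF6OE, and 49.7% and 53.2% were called either way. In InjuredPT-A, Cxcl1 and Spp1 were called higher in both, Bmp6 lower in both and Il34 lower in hKLF6OE, beside 79.2% and 78% of all genes called.

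Between genotypes without AAI, Spp1 was called higher and Il34 lower in hKLF6OE in InjuredPT-B, in InjuredPT-A and in the normal proximal tubule mean, where 71.7%, 76.1% and 17.2% of all genes were called. With AAI, Cxcl1, Bmp6 and Spp1 were called higher in InjuredPT-B, at 0.42, 0.31 and 0.22, where 17.6% of genes were called higher and 36.2% either way. In InjuredPT-A with AAI, Spp1 was called higher and Il34 and Cxcl1 lower, where 35.5% of genes were called. In the normal proximal tubule mean Cxcl1 alone was called, where 14.1% were, and among the normal clusters it was called in PT-S3-1 only.

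The genes most like each in pattern were sought by Pearson correlation of log2(level + 1) over the 92 columns, among 9858 genes with a mean of at least 0.1. Columns of a mouse share a library and those of a cluster share a cell type, so r is a description. Cxcl1 was most like Mdm2 (r = 0.89), Prrg4 (0.85) and Aen (0.84), and Mdm2, the ubiquitin ligase that restrains p53, was at 0.970, 4.50, 0.841 and 4.86 in normal proximal tubule and at 1.57, 8.18, 1.11 and 8.79 in InjuredPT-B. Both AAI-treated mice were above both untreated ones, as for Cxcl1.

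Bmp6 was most like Errfi1 (0.90), Arhgap10 (0.89) and Pdzrn3 (0.87). Errfi1, an inhibitor of the EGF receptor, was at 25.1, 16.5, 14.1 and 13.2 in InjuredPT-B, highest in the untreated control, where Bmp6 was lowest. In InjuredPT-B of either genotype, Errfi1 was thus lower and Bmp6 higher in the AAI-treated mouse.

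Il34 was most like Ugt8a (0.73), Inpp5f (0.72) and Dgkg (0.69). Dgkg, a diacylglycerol kinase, was at 1.85, 0.890, 1.43 and 0.527 in InjuredPT-B, lower in the AAI-treated mice, where Il34 was higher. In the same cluster Ugt8a was at 3.61, 2.61, 1.10 and 1.48, and Inpp5f at 2.60, 2.52, 1.96 and 3.24. Both were lower with AAI in the control and higher with AAI in hKLF6OE. Spp1 was most like Wfdc2 (0.67), Cdh6 (0.66) and Heph (0.65). Csf1 and Ccl2 had means of 0.0621 and 0.00442 over the columns, too low for a likeness to be read. Among the 6, the pair Il34 and Bmp6 had an r of 0.63, Cxcl1 and Bmp6 0.43, and Il34 and Cxcl1 0.42.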

How the data were processed

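The signal values, mean normalised expression per cluster and mouse on a linear scale, were made by the authors: 10x libraries, prepared together, were counted by Cell Ranger against mm10 with introns included, and nuclei were filtered and clustered in Seurat. No doublet removal is given for the RNA libraries. How the means were taken is not given in the sources used here. The unit follows from the deposited values, which sum to 10000 in a column. Depth per column is unknown.

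Of 19632 rows, 23 with date-like names were left out. Differences used a pseudocount of 1, a minimum larger value of 0.5 and a threshold of 0.2. The rule was also run on simulated copies of 1 column, in which some genes had been shifted by more than the threshold, without noise. Recovery of those genes followed from the threshold, so that run says nothing about sparse columns or differences between mice. The 6 genes and the 11 gene lists (198 of 234 genes in the table) were chosen with earlier results of these data known. All 6 genes are named, with list genes of the largest difference or highest level and receptors, and the 3 genes of highest correlation for each. Genes singled out with the values in view were Mertk, Id1 and Dgkg. Promoters matched for 4 of the 6 genes. Injured clusters were also compared with normal proximal tubule, since untreated injured columns were sparse. Of the lists, osteopontin relatives had no member in the table, and 10 other immune markers had none that passed in InjuredPT-B in both genotypes. Of 19 injury genes, 4 passed in both genotypes in InjuredPT-B and 5 in InjuredPT-A. Plin2, Cdkn1a and Mdm2 were called higher with AAI in both genotypes in either cluster, beside 25% and 37.2% of all genes. Krt8 was called lower in both genotypes in InjuredPT-A, where 19.7% of all genes were. Of 20 proximal tubule genes, 14 were lower in InjuredPT-B in both genotypes, beside 14.4% of all genes. Python 3.11.15, numpy 2.4.6, pandas 2.3.3 and matplotlib 3.10.9 were used.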

Additional observations from a re-analysis of the deposited data

Results flagged for a closer look

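In 12 pairs of gene and cluster the difference with AAI was called in opposite directions in the control and in hKLF6OE, with 1 mouse on each side, and these contrasts were not tested. The values below are the hKLF6OE difference minus the control difference of log2(level + 1). For Il34 they were 1.11 in PT-S3-2 (-0.45 in the control and 0.65 in hKLF6OE), 0.79 in PT-S3-3, -0.83 in CD_PC and 0.64 in MC. For Bmp6 the value was 1.76 in LH-DL, where the control gave -0.82 and hKLF6OE 0.94. For Spp1, all 7 were higher with AAI in the control and lower in hKLF6OE, at -2.95 in LH-DL, -1.15 in Podocytes, -0.96 in IC-B-1, -0.81 in CNT, -0.78 in IC-B-2, -0.75 in InjuredPT-B and -0.66 in PT-S3-3. Cxcl1, which was under the minimum in all untreated columns and so could not be called lower with AAI, had no such cluster.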

How the results depend on the processing

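Of 240 differences recomputed for single genes, 196 kept their side of the threshold and their direction, apart from 1 uncalled value named below, 24 fell below it, 6 passed it and 14 others changed direction. A pseudocount of 0.1 and no minimum changed no direction. Centring on the median of all genes reversed no called difference. In the injured clusters that median was between 0.07 and 0.15 for AAI against none, and between 0.12 and 0.22 against normal proximal tubule. Centring took Spp1 in InjuredPT-B of hKLF6OE with AAI against normal proximal tubule from 0.048 to -0.071, both under the threshold. Against the same reference in InjuredPT-A of the control with AAI, it took Spp1 from 0.41 to 0.19, under the threshold. There it also took Il34 from -0.15 to -0.38, past the threshold. At a threshold of 1, the genes higher with AAI numbered 1 in InjuredPT-B of the control and 1 in InjuredPT-A of either genotype, and the genes lower in hKLF6OE 0 in both clusters. At 0.5, 1 was higher in InjuredPT-A of either genotype and 0 lower in InjuredPT-B of hKLF6OE. With a minimum of 2, 1 was higher in InjuredPT-A of hKLF6OE. With normal proximal tubule of the untreated mouse as the reference, chosen after seeing the data because untreated injured columns were sparse, 2 were lower in InjuredPT-A of either genotype and 0 in InjuredPT-B of hKLF6OE. In that setting Bmp6 in InjuredPT-A reversed to -0.47 and -0.58, Spp1 in InjuredPT-A to 0.97 and 0.82, Spp1 in InjuredPT-B of hKLF6OE to 0.021 and Il34 in InjuredPT-A of hKLF6OE to -0.38. Where the comparison with normal proximal tubule took the same cluster of the untreated mouse in its place, Bmp6 in InjuredPT-A reversed to 0.39 and 0.47, Il34 in InjuredPT-A of hKLF6OE to 0.19, Spp1 in InjuredPT-A to -0.057 and -0.86, and Spp1 in InjuredPT-B to 0.54 and -0.21. Both settings exchange the reference itself. With the 3 PT-S3 clusters as the reference, Spp1 in InjuredPT-B of the control with AAI was 0.28. No paired analysis was possible because each condition had 1 mouse, and none could be left out. The number of nuclei and counts per column, which would limit the low levels of Csf1 and Ccl2, is unknown.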
